A study of Sus scrofa with 36 samples.

Results

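Hippocampal RNA from 12 male piglets fed milk replacer with 0.6 g/L of added lactoferrin, the medium dose, was compared with that from 12 male piglets fed the replacer without any addition. These 24 arrays, chosen by their feeding group, were all that the series held for both groups, out of 36 arrays in total. All animals were Landrace×Large White crosses that entered the study at 3 days of age and were sampled at 38 days, and 12 further piglets received 1.2 g/L, the high dose. The control replacer is not a diet free of lactoferrin, since it kept a basal amount that the labels do not quantify. The labels give the arrays 5 set codes (S1 to S5) and do not say what these stand for. Set code S1 held 2 control arrays and no medium-dose array, S2 held 2 control and 4 medium arrays, S3 and S4 held 3 of each, and S5 held 2 of each. Animals were placed in the groups at random, and the labels do not say which were littermates, so the p-values measure the spread between the sampled piglets.

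Lactoferrin is an iron-binding glycoprotein of milk that is bound by receptors of the gut and of other tissues and carries sialic acid on its glycans. In the brain, interferons act on neurons, glia and vessels through receptors that switch on a large set of antiviral genes, together with the genes that load peptides onto class I histocompatibility molecules. Brain-derived neurotrophic factor, by contrast, is a secreted protein of hippocampal neurons that acts at synapses through its receptor TrkB.

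The porcine Affymetrix array holds 23999 probe sets besides 124 array controls, and each deposited value is a log2 level rounded to 1 decimal. Of the 18006 probe sets above the 25th percentile of mean level (log2 4.92), 8372 named exactly 1 gene, and they stood for 6034 genes. Markers of brain tissue were high: SNAP25 of the synapse averaged 12.93 in controls and 12.94 at the medium dose, the astrocyte filament GFAP 12.73 and 12.66, and myelin basic protein (MBP) 14.56 and 14.50. Of 5 genes listed as hippocampal markers, only NEUROD1 was matched to a probe set, at 6.52 and 6.87, so the region itself could hardly be checked. Control replicates 10 and 4 and medium replicate 1 had the lowest mean correlations with the other arrays (0.9733, 0.9753 and 0.978), and no 2 arrays correlated above 0.9936.

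No transcript separated the groups. In the limma fit of all 36 arrays with the set code as a block, 0 of 18006 probe sets passed an adjusted p of 0.05 (0%), and the smallest adjusted p was 0.153. At an unadjusted p under 0.05 the medium group lay higher at 680 probe sets (3.78%) and lower at 568 (3.15%), in all 1248 (6.93%) where 900 would be expected with no difference anywhere. In the limma fit of the 24 arrays alone 11 probe sets passed (0.0611%). The groups overlapped at every probe set tested. The median standard error was 0.071 on the log2 scale, and the 95% interval of the difference lay within 1.25-fold in either direction for 85.1% of probe sets and within 1.5-fold for 97.6%. Differences beyond 1.5-fold were estimated for 30 probe sets, 25 of them lower and 5 higher in the medium group, and the 3 beyond 2-fold were all lower. Every gene named below misses the adjusted threshold in the 36-array fit, and p-values given with single genes are unadjusted values of that fit.

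The lowest estimates belonged to genes that interferons induce. Of 18 antiviral interferon-stimulated genes tested (21 of the 46 listed were on the array), 13 lay lower at an unadjusted p under 0.05 and 0 higher, and all 18 estimates were below 0, with a median difference of -0.45. Over all 6034 genes, 217 lay lower and 191 higher by the same measure, and the median was 0.0008. In a piece of tissue, fewer cells that express a gene and less RNA per cell cannot be told apart.

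ISG15 encodes a ubiquitin-like protein that is joined to other proteins during the antiviral response. Its level in controls ran from 7.5 over a median of 8.35 to 11.3, and in medium-dose piglets from 7.4 over 7.7 to 10. The estimated difference was -0.92 ± 0.32 (SE, n = 12 and 12, p = 0.00648), or 0.528-fold. The 4 highest ISG15 values among controls were 11.3, 10.3 and 9.5 in control replicates 8, 9 and 10, all of set code S4, and 10.8 in control replicate 11 of S5, while the other 8 controls lay between 7.5 and 8.9. The only medium-dose value above 9 was 10 in replicate 11, which is of S5 too.

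ISG12(A), an interferon-induced protein of mitochondrial and nuclear membranes, had the same shape. It ran from 8.2 over 9.35 to 11.1 in controls and from 8.1 over 8.4 to 9.9 at the medium dose (difference -1.03 ± 0.29, p = 0.00104, 0.491-fold), and 11 of 12 medium-dose arrays lay below the control median. IFI44L, a cytoplasmic interferon-induced gene, differed by -0.76 ± 0.24 (p = 0.00339), and its other 2 probe sets gave -0.81 and -0.77. RSAD2 (viperin), which disturbs the replication of several viruses, ran from 4.5 over 6.0 to 9.6 in controls and from 4.3 over 4.9 to 8.2 at the medium dose (difference -0.96 ± 0.45, p = 0.0415). IFIT1, which binds viral RNA, differed by -0.76 ± 0.28 (p = 0.0101). The other 2 probe sets of IFIT1 gave -0.84 and -0.12. XAF1, a pro-apoptotic interferon target, differed by -0.55 ± 0.18 and PARP12, a mono-ADP-ribosyltransferase, by -0.51 ± 0.18.

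Genes that respond to interferon gamma gave the largest estimate of any named gene. GBP1, a guanylate-binding protein that acts against intracellular pathogens, ran from 6.1 over 7.25 to 9.8 in controls and from 5.0 over 6.35 to 8.5 at the medium dose. The difference was -1.34 ± 0.42 (p = 0.00328), or 0.395-fold with a 95% interval of the log2 difference from -2.20 to -0.48, and the other 2 probe sets gave -0.61 and -0.73. Its values of 9 and above were in control replicates 6, 8, 9, 10 and 11, and in no medium-dose array. Of the 9 genes of the interferon-gamma list, 5 lay lower and 0 higher, with a median of -0.51. They include CASP1, the protease that activates interleukin 1 beta (-0.47 ± 0.13, p = 0.000767), GBP2 (-0.51 ± 0.16, p = 0.00371), the death ligand TNFSF10 (-0.65 ± 0.26, p = 0.0159) and PLAC8 (-0.85 ± 0.38, p = 0.0326). For CASP1, 10 of 12 medium-dose arrays lay below the control median of 7.4.

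Molecules upstream of these genes showed less. Among 20 genes of interferon signalling, 3 lay lower and 1 higher, and the median was -0.08. The count of 3 was 0 without S3 or without S4, 1 without control replicate 9 and 8 without control replicate 12. The transcription factors IRF1 (-0.45 ± 0.20, p = 0.0293), IRF8 (-0.19 ± 0.08, p = 0.017) and STAT3 (-0.12 ± 0.05, p = 0.0382) lay lower, and the phosphatase PTPN2, a brake on this pathway, lay 0.11 ± 0.05 higher (p = 0.0412), though its other probe set gave -0.05.

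**Figure D1:**
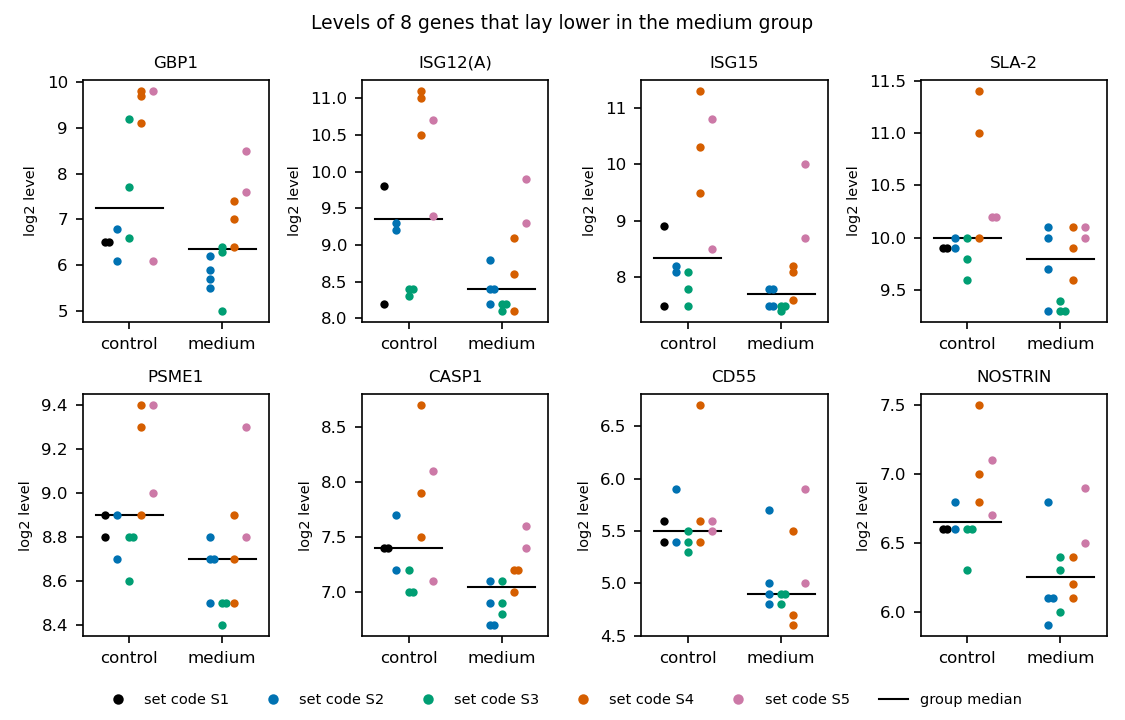
Log2 level (vertical axis) of 8 genes on each of 12 control and 12 medium-dose arrays, coloured by set code, with a line at the group median. The 3 highest values of ISG15 and of GBP1 lie in control replicates 8 and 9 of set code S4 and control replicate 11 of S5, and the groups overlap for all 8 genes.

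The machinery of class I antigen presentation, which displays peptides from inside the cell to cytotoxic T cells, lay on the same side. All 15 genes tested had estimates below 0, 7 of them at an unadjusted p under 0.05, with a median of -0.21. PSME1 and PSME2, the subunits of the proteasome activator PA28, differed by -0.29 ± 0.08 (p = 0.00115) and -0.36 ± 0.10 (p = 0.00129). PSME1 ran from 8.6 over 8.9 to 9.4 in controls and from 8.4 over 8.7 to 9.3 at the medium dose, and PSME2 from 8.0 over 8.3 to 9.2 and from 7.8 over 8.05 to 8.7. For PSME2, 11 of 12 medium-dose arrays were below the control median.

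SLA-2, a classical class I heavy chain of the pig, ran from 9.6 over 10 to 11.4 in controls and from 9.3 over 9.8 to 10.1 at the medium dose (difference -0.48 ± 0.15, p = 0.0025). Only control replicates 9 (11.4) and 10 (11) lay above 10.2, and the class I genes resemble each other closely, so a probe set may detect more than 1 of them. Beta-2-microglobulin (B2M), their light chain, differed by -0.48 ± 0.15 (p = 0.00313) at the probe set with the highest mean, but its other 8 probe sets gave values from -0.39 to 0.31. Of 12 genes of class II presentation, which serves helper T cells, 1 lay lower and 0 higher (median -0.15). The count of lower genes was 5 without control replicate 12 and 0 without S4. Within S2 to S5 the class II medians were 0.07, -0.12, -0.55 and -0.05. The 1 lower gene was CTSS, a lysosomal protease (-0.46 ± 0.17, p = 0.0105). The class II gene SLA-DMA differed by -0.12 (p = 0.066) at the probe set counted, but by -0.43 ± 0.13 (p = 0.00285) at a dimmer one. SLA-DRA, the class II alpha chain, ran from 5.3 over 5.9 to 8.9 in controls and from 5.1 over 5.8 to 6.5 at the medium dose (-0.55 ± 0.28, p = 0.0593), and the invariant chain CD74 differed by -0.26 ± 0.14 (p = 0.0745).

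Complement genes contributed the lower gene with the smallest p. CD55, a membrane protein that breaks up complement convertases, ran from 5.3 over 5.5 to 6.7 in controls and from 4.6 over 4.9 to 5.9 at the medium dose. The difference was -0.57 ± 0.14 (p = 0.000191), or 0.675-fold, and 9 of 12 medium-dose arrays lay below the lowest control. CD55 did not follow the pattern of the interferon genes, since control replicates 8 and 9 were within the range of the other controls and only replicate 10 (6.7) stood out. Its other tested probe set gave -0.10 (p = 0.24). Of 15 complement genes and regulators, 6 lay lower and 0 higher, with a median of -0.24. The count of lower genes was 9 without control replicate 8 and 4 without medium replicate 8. Among the 6 lower genes, CD59, which blocks the terminal pore, differed by -0.25 ± 0.09 (p = 0.00577). The C1 inhibitor SERPING1 differed by -0.26 ± 0.09 (p = 0.00466) and the protease C1R by -0.37 ± 0.14 (p = 0.0138). SERPING1 ran from 8.1 over 8.3 to 9.2 in controls, with 9.2 in replicate 9, and from 8.0 over 8.1 to 8.4 at the medium dose.

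Microglia, the resident macrophages of the brain, express several of these genes themselves. All 13 microglial markers tested had estimates below 0, 4 of them at an unadjusted p under 0.05 (CTSS, IRF8, P2RY12 and C1QC), with a median of -0.17. CTSS was counted among the class II genes too and IRF8 among those of interferon signalling, so these counts are not separate. P2RY12, the purinergic receptor of resting microglia, ran from 9.3 over 9.85 to 10.6 in controls and from 9.3 over 9.65 to 10 at the medium dose (-0.27 ± 0.11, p = 0.0172). The complement subunit C1QC differed by -0.26 ± 0.12 (p = 0.0377). That count was 8 without control replicate 8 and 1 without any of S2, S3 or S4. The mean of the list on single arrays ran from 7.28 to 8.23 in controls and from 7.13 to 7.79 at the medium dose. Control replicate 9 was highest and replicate 8, with the highest antiviral mean of all 24 arrays (8.71), was the lowest control. Whether the microglial markers have a part in the interferon differences was not tested.

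**Figure D2:**
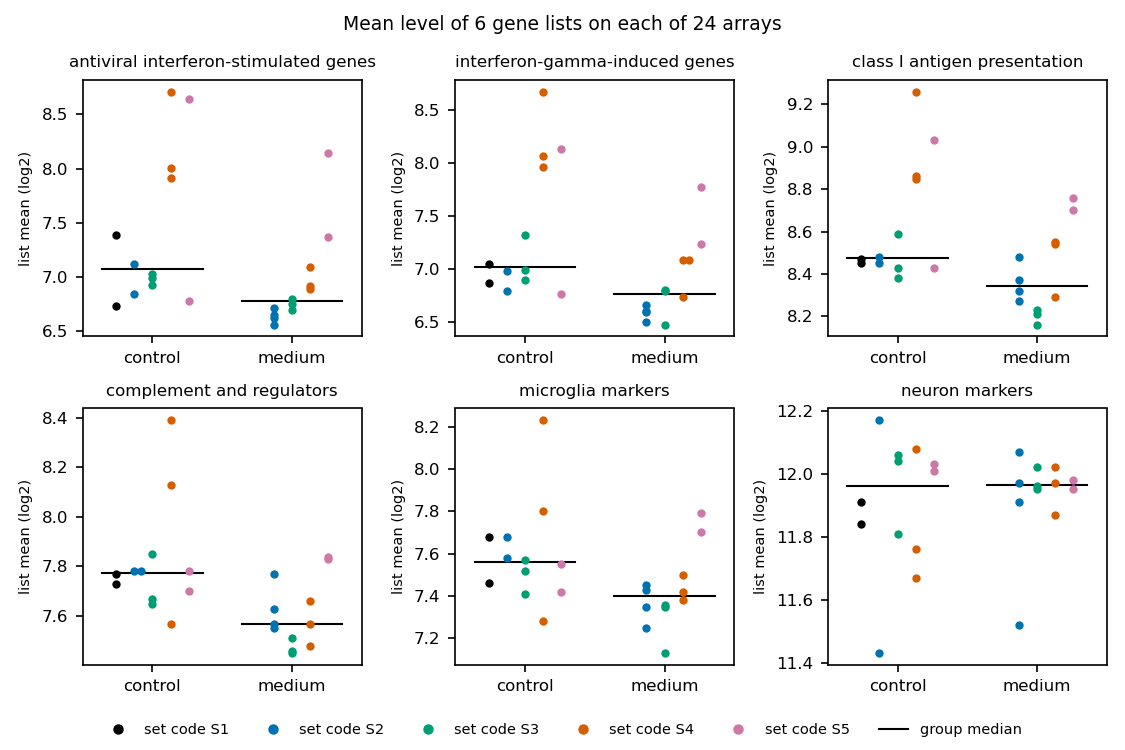
Mean log2 level (vertical axis) of 6 gene lists on each of the 24 arrays, coloured by set code, with a line at the group median. The antiviral mean reaches 8.71 in controls and 8.14 at the medium dose, with the 3 control arrays of S4 at 7.91 to 8.71, whereas the neuron mean runs from 11.43 to 12.17 in controls and from 11.52 to 12.07 at the medium dose.

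The differences of the interferon and class I lists were largest within set code S4. Within S4, the mean of the antiviral list was 8.71, 8.01 and 7.91 in the 3 controls and 6.89, 7.09 and 6.92 in the 3 medium-dose piglets, and the median member differed by -1.2. Within S2 and S3 the median member differed by -0.29 and -0.2, and within S5 by -0.05, where control replicate 11 stood at 8.64 and replicate 12 at 6.78 beside medium-dose values of 8.14 and 7.37. Without S4, 0 of the 18 antiviral genes had an unadjusted p under 0.05 and the median was -0.23. Without control replicate 8 alone 6 genes had one, and without medium replicate 8 alone 7, and with no set block 6. The class I list went from a median of -0.5 in S4 to 0.05 in S5, and without S4 it kept 4 lower genes and a median of -0.13. The interferon-gamma list had medians of -0.15, -0.2, -1.3 and -0.05 in S2 to S5, and 1 lower gene without S4. For the complement and microglia lists the medians in S4 lay close to those in S3. Complement had medians of -0.15, -0.3, -0.37 and 0.05 in S2 to S5, but 2 lower genes without S4 beside 6 with it. The microglial markers had medians of -0.2, -0.23, -0.23 and 0.2.

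Whether the difference itself varied between set codes was tested with an interaction over the 22 arrays of S2 to S5. No probe set passed (0 of 18006, limma F test, smallest adjusted p 0.537). An unadjusted p under 0.05 was found for 1119, where 900 would be expected with no interaction anywhere. Among the interferon genes, ISG12(A) had an interaction p of 0.000196 (adjusted 0.59), IFI44L 0.00531 and ISG15 0.0122, both at an adjusted 0.769. Within S4, the polyadenylated spike-in control Dap, added at labelling, was absent from control replicates 8 and 10 and present on all 3 medium-dose arrays. Outside S4 it was absent from control replicate 7 and medium replicates 1, 5 and 7. With its presence as a second block the antiviral list again had 13 lower genes and a median of -0.45. That block is 1 term shared by all set codes, and whether Dap goes with the difference within S4 was not tested.

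**Figure D3:**
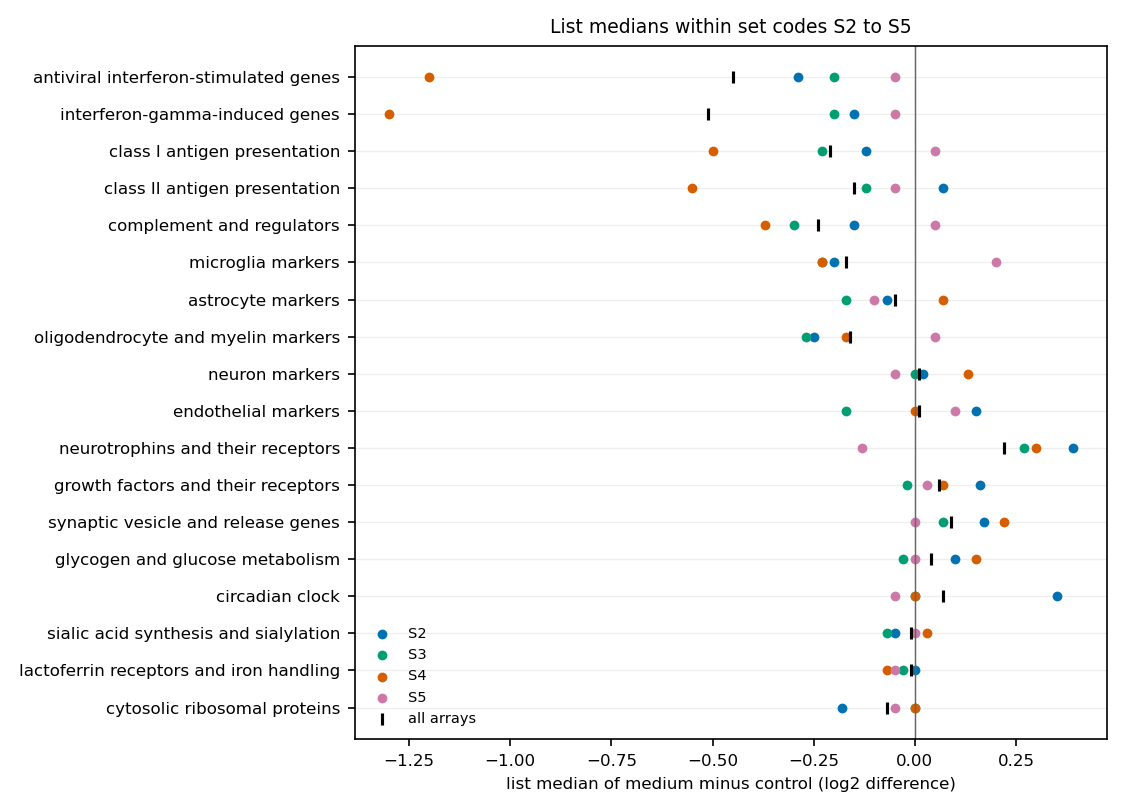
Median log2 difference (horizontal axis, medium minus control) of the members of 18 gene lists within each set code that held both groups, with the estimate from all arrays as a vertical mark. The antiviral and interferon-gamma lists reach -1.2 and -1.3 in S4 and lie at -0.05 in S5.

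Other lower genes were of various kinds. NOSTRIN, which binds the endothelial nitric oxide synthase and moves it away from the membrane, ran from 6.3 over 6.65 to 7.5 in controls and from 5.9 over 6.25 to 6.9 at the medium dose (-0.47 ± 0.11, p = 0.000226). It lay below 0 in each of the 4 set codes (-0.47, -0.27, -0.87 and -0.2), and 10 of 12 medium-dose arrays were below the control median. The highest NOSTRIN values were in control replicates 9, 10 and 11 (7.5, 7.0 and 7.1), which were also high in interferon genes. Without S4 the NOSTRIN difference was -0.32. CLIC2, a chloride channel-like protein of endothelium, differed by -0.40 ± 0.12 (p = 0.00268). It was highest in control replicates 8, 9, 10 and 11 (6.9, 7.4, 7.0 and 7.0), and without S4 it differed by -0.24. DCN (decorin), a proteoglycan of collagen fibres made by fibroblasts and meninges, ran from 6.6 over 7.4 to 8.8 in controls and from 6.0 over 6.65 to 7.9 at the medium dose (-0.77 ± 0.28, p = 0.00944). It was the only lower gene of 16 pericyte, smooth muscle and fibroblast markers, of which 9 had estimates above 0, with a median of 0.02. FXYD5 (-0.18 ± 0.05, p = 0.0021), a regulator of the sodium pump, the adaptor PIK3AP1 (-0.19 ± 0.05, p = 0.00164), SHISA5 (-0.24 ± 0.07, p = 0.00113) and the mitochondrial peroxidase PRDX3 (-0.17 ± 0.05, p = 0.00277) completed the lower genes with the smallest p. The other probe set of PIK3AP1 gave 0.09, and those of SHISA5 gave -0.13 and 0.09. SHISA5 was highest in control replicates 8, 9 and 11 (9.2, 9.1 and 9.2), and without S4 it differed by -0.13.

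Endothelial genes did not move as a group. CD93, a lectin-like receptor of endothelial cells involved in vessel growth, was the named gene with the smallest p in the whole comparison and lay higher. It ran from 8.8 over 9.45 to 9.9 in controls and from 9.1 over 9.8 to 10 at the medium dose (0.40 ± 0.09, p = 0.000165, 1.32-fold), and 11 of 12 medium-dose arrays were above the control median. The 12th was medium replicate 11 of S5, at 9.1. A second, dimmer probe set of CD93 gave 0.12. The CD93 difference was 0.77 within S4 and 0.43, 0.1 and 0.1 within S2, S3 and S5. NOS3, the endothelial nitric oxide synthase itself, lay 0.17 ± 0.06 higher (p = 0.00975). Over 25 endothelial markers, 2 lay higher and 2 lower with a median of 0.01, and PECAM1, CDH5 and CLDN5, taken as defining markers and not for their size, differed by 0.07, 0.06 and -0.04.

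Several genes lay higher with little spread between arrays. FKBP1A, the binding protein of the drug tacrolimus and a regulator of calcium-release channels, ran from 8.9 over 9.15 to 9.4 in controls and from 9.2 over 9.4 to 9.6 at the medium dose (0.26 ± 0.06, p = 0.000211, 1.20-fold). All 12 medium-dose arrays were above the control median. SH3PXD2A, a scaffold of actin-rich podosomes, ran from 8.8 over 9.0 to 9.2 and from 8.9 over 9.3 to 9.6 (0.28 ± 0.07, p = 0.000256). ACTN2, an actin-binding protein of dendritic spines and muscle, ran from 6.8 over 7.6 to 7.9 in controls and from 7.7 over 8.0 to 8.3 at the medium dose (0.43 ± 0.12, p = 0.00103), and a second probe set gave 0.08. For ACTN2 and for the membrane protein TMEM54 (0.45 ± 0.16, p = 0.00782) all 12 medium-dose arrays lay above the control median. Within set codes ACTN2 differed by 0.67, 0.3, 0.57 and 0.55, so that S5 did not stand apart from the others here. Without control replicate 10, the TMEM54 difference was 0.33, and a second probe set of TMEM54 gave 0.12.

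The remaining higher genes with the smallest p were FLOT2, a lipid-raft protein (0.21 ± 0.06), the ubiquitin-conjugating enzyme UBE2D4 (0.17 ± 0.05), the zinc-finger protein CXXC5 (0.19 ± 0.06), the transporter-like MFSD4A (0.40 ± 0.12) and PPRC1, a coactivator of mitochondrial genes (0.15 ± 0.05). A second probe set of FLOT2 gave 0.05, those of UBE2D4 gave 0.02 and 0.11, and those of CXXC5 gave 0.17 and 0.04. Larger estimates with larger errors were those of PTH1R, the parathyroid hormone receptor (0.51 ± 0.20, p = 0.0134), of the transcription factor CEBPD (0.47 ± 0.20, p = 0.0232), of periplakin, PPL (0.41 ± 0.17, p = 0.0187), and of PPP1R1A, an inhibitor of protein phosphatase 1 (0.40 ± 0.12, p = 0.00258). CEBPD was 6.3 in control replicate 10 and at least 7.3 in every other array, and without that replicate its difference was 0.30.

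**Figure D4:**
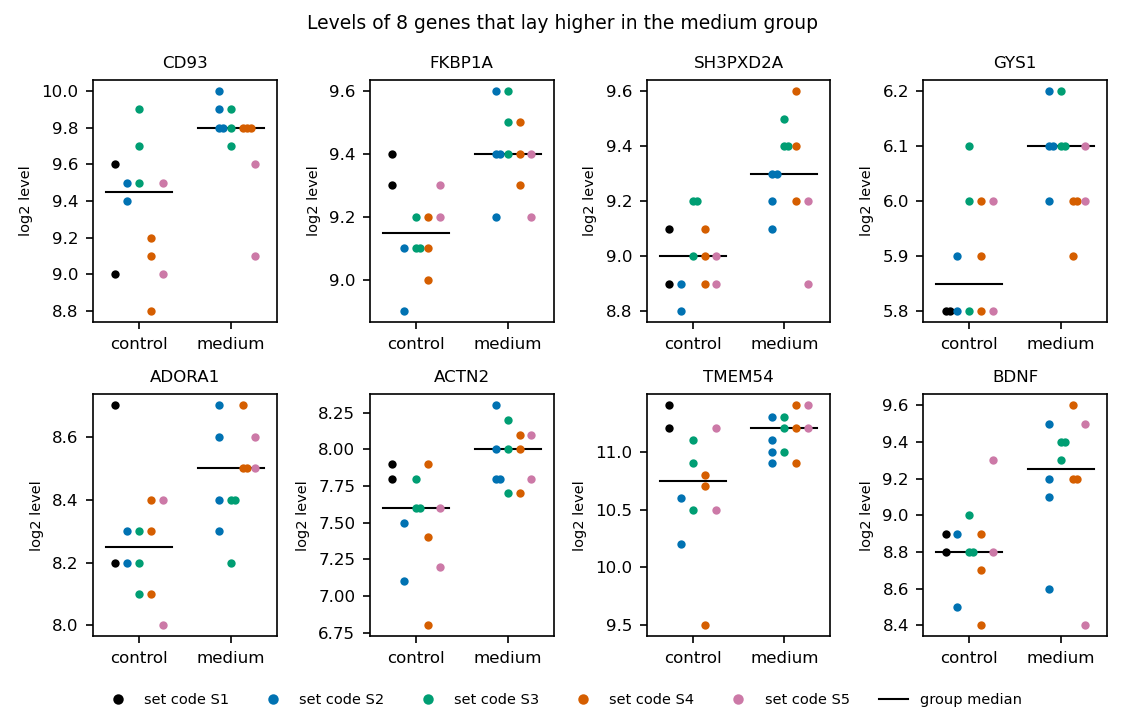
Log2 level (vertical axis) of 8 genes on each of 12 control and 12 medium-dose arrays, coloured by set code, with a line at the group median. All 12 medium-dose values of FKBP1A, GYS1, ACTN2 and TMEM54 lie above the control median, and none of the 8 genes separates the groups completely.

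BDNF, the neurotrophin, had a single probe set. Its level ran from 8.4 over 8.8 to 9.3 in controls and from 8.4 over 9.25 to 9.6 at the medium dose, and 10 of 12 medium-dose arrays lay above the control median. The difference was 0.36 ± 0.14 (p = 0.0126), or 1.28-fold with a 95% interval of the log2 difference from 0.08 to 0.63. Medium replicates 1 (8.6) and 11 (8.4) were the exceptions. Within S2, S3 and S4 the difference was 0.4, 0.5 and 0.67, and within S5 it was -0.1. Without S4 it was 0.24 with a p of 0.154, the highest p that leaving out a set code gave.

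The other neurotrophin genes did not reach an unadjusted p under 0.05 at the probe set used. Among them were NTF3, the ligand of TrkC (0.33 ± 0.21, p = 0.133), NTRK3, which encodes TrkC (0.17 ± 0.10, p = 0.103), and the pro-protein convertase PCSK7 (0.07 ± 0.05, p = 0.185). The 2 dimmer probe sets of NTRK3 gave 0.29 (p = 0.000626) and 0.21 (p = 0.0029). Of the 6 genes of this list 1 lay higher and 0 lower, with a median of 0.22. NTRK2, the gene of TrkB, was not matched to a probe set. Downstream of TrkB, 1 of 22 genes lay higher (median 0.01), a count that ran from 0 (without control replicate 10) to 3 with single arrays left out and from 0 to 4 with set codes left out. This was PDPK1, the kinase that activates AKT (0.13 ± 0.05, p = 0.0208). Of all 6034 genes, 191 lay higher. CREB1, the transcription factor at the end of this cascade, differed by -0.03 ± 0.06, and CAMK2B by 0.24 ± 0.13.

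Among 26 growth factors and their receptors, 6 lay higher and 1 lower, with a median of 0.06. NREP, a neuronal protein linked to axon regeneration, ran from 10.5 over 11.15 to 11.6 in controls and from 11.1 over 11.4 to 11.7 at the medium dose (0.31 ± 0.08, p = 0.000703). FGFR1, a fibroblast growth factor receptor (0.21 ± 0.08, p = 0.0107), IGFBP2, which binds insulin-like growth factors (0.20 ± 0.08, p = 0.0134), and EGFR (0.14 ± 0.06, p = 0.0279) lay higher as well. The IGFBP2 difference was 0.62 within S2 and -0.13 within S3. Without control replicate 4, 3 of the 26 genes lay higher, and without the 3 arrays of lowest correlation 1.

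Synaptic genes gave small differences. All 8 genes of synaptic vesicles had estimates above 0 (median 0.09), and 1, the vesicle protein SYT5, had an unadjusted p under 0.05 (0.17 ± 0.07, p = 0.0285). Without control replicate 4 the SYT5 difference was 0.11 (p = 0.113), and leaving out single arrays moved the list's count of higher genes between 0 (without control replicate 4 or 10) and 3 (without medium replicate 1 or 11). SYN1, which tethers vesicles to actin, differed by 0.18 ± 0.09 (p = 0.0529). Of 10 postsynaptic scaffold and adhesion genes 6 had estimates above 0 and 4 below (median 0.05), and only ACTN2 had an unadjusted p under 0.05. The spine protein BAIAP2 differed by 0.29 ± 0.16 (p = 0.0733) and the scaffold HOMER2 by -0.21 (p = 0.0688). Among 15 receptors for monoamines, acetylcholine, adenosine and peptides, ADORA1 lay higher. It encodes the adenosine A1 receptor, which dampens transmitter release in the hippocampus, and ran from 8.0 over 8.25 to 8.7 in controls and from 8.2 over 8.5 to 8.7 at the medium dose (0.25 ± 0.07, p = 0.000517). Its difference was above 0 in each of the 4 set codes (0.25, 0.13, 0.3 and 0.35). The 5 genes of glutamate signalling and the 3 of GABA signalling that were tested held 0 genes at an unadjusted p under 0.05. FOS, an activity-induced transcription factor, differed by -0.07 ± 0.17, and the list of 15 immediate early genes held 1 lower gene, IER2 (-0.14 ± 0.07, p = 0.0399).

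Cell type markers other than those of microglia gave few differences. The 11 neuron markers had a median of 0.01 with 0 lower and 0 higher, and the 6 interneuron markers likewise a median of 0.01 with 0 and 0. Of 17 oligodendrocyte and myelin genes, 15 had estimates below 0 (median -0.16), but 1 had an unadjusted p under 0.05. This was CNP, an enzyme of myelin, which ran from 9.3 over 10 to 11 in controls and from 8.7 over 9.4 to 10.3 at the medium dose (-0.58 ± 0.21, p = 0.00784), and its second probe set gave -0.59. MBP, the structural myelin protein, differed by -0.04 ± 0.05 at its brightest probe set. Its dimmer tested probe sets gave 0.24 (p = 0.16) and 0.31 (p = 0.135). The oligodendrocyte mean was highest in control replicate 4 (11.04), and without the 3 arrays of lowest correlation the list median was -0.03. Without control replicate 3, 5 of the 17 lay lower. The lineage factor OLIG2 differed by -0.19 ± 0.09 (p = 0.0351), but by -0.12 (p = 0.138) without control replicate 4, and its other tested probe set gave 0.04. Of 11 astrocyte markers 2 lay lower, the gap junction gene GJA1 (-0.22 ± 0.08, p = 0.0135) and the lipid carrier APOE (-0.17 ± 0.08, p = 0.0326), while GFAP differed by -0.06 ± 0.10. Transthyretin (TTR), the marker of choroid plexus, ran from 5.1 to 8.2 in controls and from 5.4 to 7.8 at the medium dose, with a difference of 0.18 ± 0.32. Of the 5 subfield genes MEIS2, a homeobox factor, lay lower (-0.34 ± 0.11, p = 0.00453), while the other 4 had estimates above 0 and the list median was 0.23. These were the opioid precursor PDYN (0.4), NEUROD1 (0.34), RGS14 (0.23) and DSP (0.19), with p from 0.133 to 0.244.

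Genes tied to lactoferrin itself were close to equal. The lactoferrin gene LTF lay below the filter on dim probe sets, at a mean of 4.60 in controls and 4.53 at the medium dose. LRP8, a member of the lipoprotein receptor family that binds reelin, ran from 9.2 over 9.4 to 9.5 and from 9.1 over 9.5 to 9.7 (0.07 ± 0.06, 95% interval -0.05 to 0.20). The transferrin receptor TFRC, which takes up iron, ran from 4.7 over 4.9 to 5.3 in both groups (0.00 ± 0.07, 95% interval -0.14 to 0.14). Transferrin (TF) differed by -0.20 ± 0.16 and the ferritin light chain FTL by -0.09 ± 0.07. Of all 19 genes of lactoferrin binding and iron handling, 0 lay higher and 0 lower at an unadjusted p under 0.05, and the limma estimates ran from -0.2 to 0.11. LRP1 was not matched to a probe set.

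Sialic acid is joined in long chains to the adhesion molecule NCAM1 in the growing hippocampus. Among 15 genes of its synthesis and transfer, 3 lay lower and 0 higher (0 lower without S3), with a median of -0.01. ST8SIA4, which builds those chains, ran from 7.7 over 8.25 to 8.7 in controls and from 7.7 over 8.0 to 8.4 at the medium dose (-0.21 ± 0.10, p = 0.0487), and a second probe set gave -0.22. ST3GAL3, a sialyltransferase of gangliosides and glycoproteins, differed by -0.28 ± 0.12 (p = 0.0227), mostly within S3 (-0.6). NPL, which breaks down free sialic acid, differed by -0.20 ± 0.10 (p = 0.046). GNE, the first enzyme of sialic acid synthesis, differed by 0.09 ± 0.07 and NCAM1 by 0.01 ± 0.08 (95% interval -0.14 to 0.17).

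In metabolism, GYS1, the glycogen synthase of muscle and brain, ran from 5.8 over 5.85 to 6.1 in controls and from 5.9 over 6.1 to 6.2 at the medium dose (0.17 ± 0.04, p = 0.000492). All 12 medium-dose arrays lay above the control median, and the difference is less than 2 of the 0.1 steps of the deposited values. A second tested probe set of GYS1 gave 0.02, and 1 below the filter gave 0.06. GYG1, which primes glycogen, differed by 0.27 ± 0.17 (p = 0.111), and LDHA, which makes lactate, by 0.21 ± 0.10 (p = 0.0478). Of 26 genes of glycogen and glucose metabolism, 22 had estimates above 0 and 2 an unadjusted p under 0.05, with a median of 0.04. Without S4 that median was 0 and 1 gene lay higher.

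Of 30 lipid genes, 1 lay higher, the desaturase-like FADS6 (0.27 ± 0.11, p = 0.0167), and 3 lower, beside 191 higher and 217 lower of all 6034 genes. The lower genes were ACSL5, which activates fatty acids (-0.31 ± 0.10, p = 0.00375), APOE, and the elongase ELOVL6 (-0.20 ± 0.09, p = 0.0405). The other probe sets of ELOVL6 gave 0.07, -0.07 and -0.07. FADS6 ran from 8.8 over 9.15 to 9.5 in controls and from 9.3 over 9.4 to 9.6 at the medium dose, all 12 above the control median. Selenoprotein P (SELENOP), the selenium carrier, ran from 10.3 over 10.95 to 11.7 in controls and from 10.2 over 10.5 to 10.9 at the medium dose (-0.30 ± 0.12, p = 0.0184). All 12 medium-dose arrays were below its control median, but without control replicate 4 the difference was -0.18.

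Among 9 clock genes, the deubiquitinase USP2 (0.22 ± 0.07, p = 0.00396), the kinase CSNK1D (0.11 ± 0.04, p = 0.0247) and the repressor CRY2 (0.17 ± 0.08, p = 0.0451) lay higher and 0 lower. The other probe sets of CSNK1D gave -0.02 and 0.04. Within S2 the median of that list was 0.35 and within S3 and S4 it was 0, and without S2 0 of the 9 lay higher, and without control replicate 4 it was 1. KLF9, a target of glucocorticoids and thyroid hormone, lay 0.26 ± 0.09 higher (p = 0.0053). It was the only 1 of 16 glucocorticoid and stress genes to do so, beside 191 of all 6034 genes. CCND2, a cyclin of neural progenitors, lay 0.26 ± 0.10 higher (p = 0.02), and STMN1 lay lower (-0.14 ± 0.06, p = 0.0389), among 11 genes of proliferation and neurogenesis.

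Large structural lists stayed near 0. Of 56 cytosolic ribosomal protein genes 52 had estimates below 0, but the median was -0.07 and 3 had an unadjusted p under 0.05, such as RPL7 (-0.12 ± 0.05, p = 0.0261). That count was 0 without control replicate 4 or 10, 13 without control replicate 8 and 12 without medium replicate 6. Of 53 genes of oxidative phosphorylation 1 lay lower (SDHC, -0.09 ± 0.04, p = 0.0431), with a median of -0.01. Of 43 genes of the actin cytoskeleton 4 lay higher, among them SH3PXD2A and the spine protein drebrin (DBN1, 0.23 ± 0.07, p = 0.00405), and 1 lower, the membrane linker moesin (MSN, -0.13 ± 0.05, p = 0.0157). Without S1 10 of them lay higher and without S4 2.

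**Figure D5:**
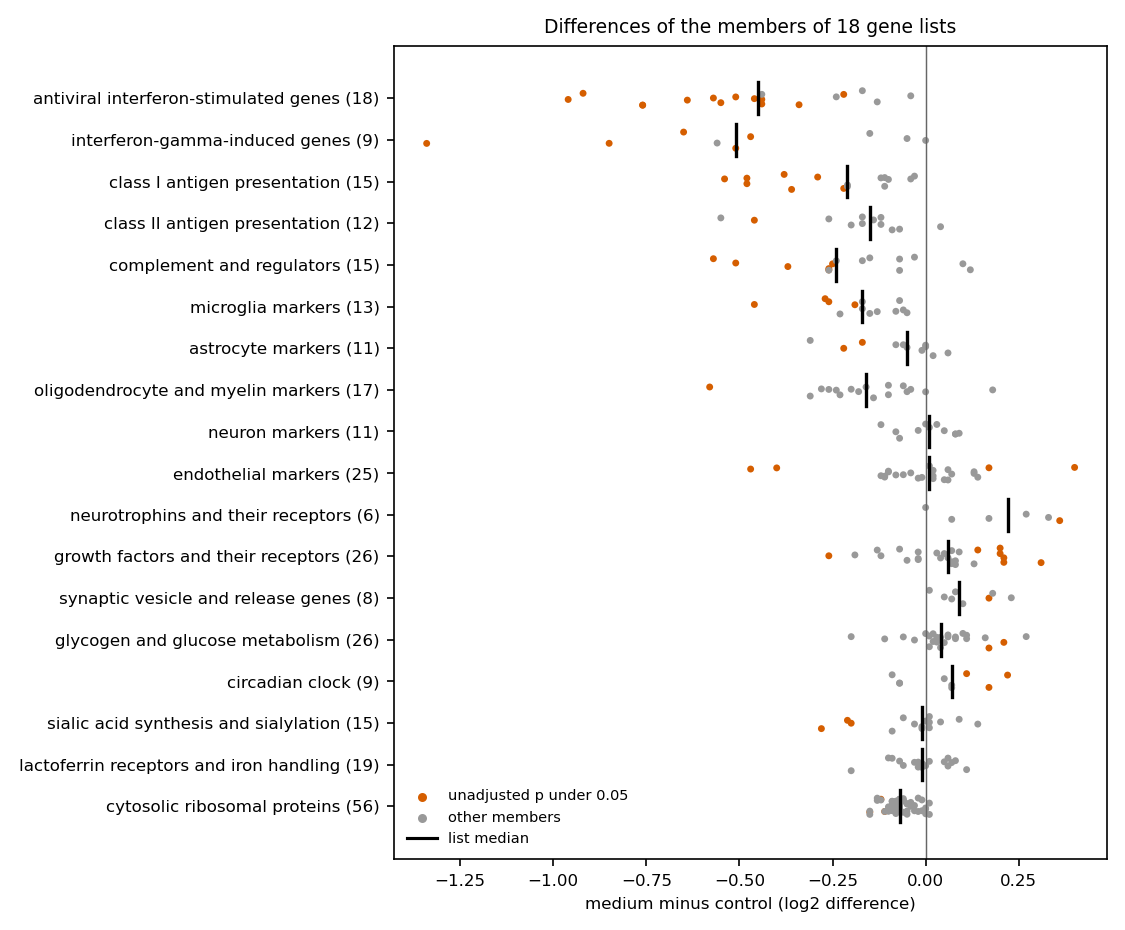
Log2 difference between medium-dose and control arrays (horizontal axis) for every tested member of 18 gene lists, 1 point per gene, with the number of members in brackets and a bar at the list median. Medians run from -0.51 for the interferon-gamma list to 0.22 for the neurotrophin list, and 0.0008 is the median over all genes.

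With the 24 arrays alone, 11 probe sets passed an adjusted p of 0.05 in limma, 10 higher and 1 lower. Of these, 3 named a gene: FADS6 (0.36 ± 0.05, adjusted p = 0.0094), SH3PXD2A (0.31 ± 0.06, adjusted p = 0.046) and FKBP1A (0.30 ± 0.06, adjusted p = 0.0489). This fit kept the set block and estimated the spread without the high-dose piglets. The controls of S1 added nothing to its differences, since S1 held no medium-dose array. With the high-dose piglets included, the differences were 0.27 for FADS6, 0.28 for SH3PXD2A and 0.26 for FKBP1A. So the estimates changed between the fits, and not only the spread. Which of these changes led to the passes was not tested. In the fit of the 24 arrays GBP1 differed by -1.41 ± 0.40 (adjusted p = 0.182) and BDNF by 0.41 ± 0.13 (adjusted p = 0.235). The antiviral list held 13 lower genes and a median of -0.48, and the class I list 8 and -0.26.

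The high-dose piglets were compared with the same 12 controls, so the results of both doses are tied by those arrays. The values of both doses stand side by side here for genes described above. GBP1 differed from control by -1.34 ± 0.42 at the medium and -0.45 ± 0.42 at the high dose, and ISG15 by -0.92 ± 0.32 and -0.15 ± 0.31. CD55 differed by -0.57 ± 0.14 and -0.31 ± 0.13, and NOSTRIN by -0.47 ± 0.11 and -0.10 ± 0.11. CD93 differed by 0.40 ± 0.09 and 0.11 ± 0.09, FKBP1A by 0.26 ± 0.06 and 0.13 ± 0.06, and BDNF by 0.36 ± 0.14 and 0.12 ± 0.13. DCN was as low at the high dose (-0.77 ± 0.28 and -0.79 ± 0.28), and P2RY12 was too (-0.27 ± 0.11 and -0.35 ± 0.11). The median member of the antiviral list differed from control by -0.45 at the medium and -0.15 at the high dose. Directly between the doses, CD93 had an adjusted p of 0.811, as had CD55.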

How the data were processed

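RNA levels were measured on Affymetrix porcine arrays, 1 per piglet. The deposited values are on the log2 scale, 1 per probe set and array, as computed by the authors. The submitters' processing notes name RMA as the method and Expression Console 1.1 of Affymetrix as the program. RMA pulls arrays to a common distribution, so a change shared by most transcripts could not be seen, and rounding to 1 decimal coarsens small differences. Array controls and probe sets below the 25th percentile of mean level were left out. Differences were fitted in R 4.3.3 with limma 3.58.1 (lmFit and eBayes, two-sided) over 36 arrays, with feeding group and set code as terms, 29 residual degrees of freedom and Benjamini-Hochberg adjustment over 18006 probe sets. The fit was tested on simulated data. The number of arrays limits the precision. Set code S1 has no medium-dose array and enters this difference only through the shared terms. A gene is shown by its probe set with the highest mean, so levels of different genes are not comparable. A count of lower or higher genes means an unadjusted p under 0.05. For every list it stands beside 217 lower and 191 higher of all 6034 genes. Where 3 numbers are given for a group they are its lowest, median and highest array, and ± is the standard error of the fit. Differences within a set code are differences of its group means.

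Names came from GEO's platform annotation (10069 probe sets with 1 symbol, 198 with several, 13732 with none), of which 9961 were matched by gene ID to the RefSeq table. The groups, the 38 lists of 1193 symbols and the rule for naming genes were chosen with earlier results of these data known, and no list was tested as a set. Some genes stand in more than 1 list. The rule took the 12 smallest p and 8 largest differences in each direction, up to 4 members per list, genes passing in the fit of the 24 arrays, and BDNF, NTRK2, CREB1, NCAM1, ST8SIA4, GNE, LTF, TFRC, LRP1, LRP8, TTR, MBP, GFAP, SYP and FOS, of which NTRK2, LRP1 and SYP were not matched. The alternatives were no set block, a random set block, replicate blocks, the 24 arrays alone, other filters, centring, quantile normalisation, array weights, robust trended eBayes, 1 probe set per gene, and leaving out arrays or set codes. The spike-in block and the list counts with arrays left out were added after the data had been seen. Promoter sequences were not analysed here.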

Additional observations from a re-analysis of the deposited data

How the results depend on the processing

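With limma, 0 probe sets passed and 1248 had an unadjusted p under 0.05. With 24 arrays alone these were 11 and 1902, without set code S1 4 and 1857, and with 1 probe set per gene, where 6034 were tested, 0 and 424. The causes were not tested, apart from the smaller number of probe sets in the last. Leaving out each array in turn gave 0 to 1 passing (1 without medium replicate 12, smallest adjusted p 0.0127) and 931 to 1448 at an unadjusted p under 0.05. The other settings passed 0 probe sets and gave 888 (filter at the 50th percentile, where fewer probe sets were tested) to 1614 (without S5). Without S4, the smallest adjusted p was 0.951 and the split was 442 higher and 451 lower, and without the 3 arrays of lowest correlation it was 480 and 535. The replicate numbers do not pair the piglets (correlations of same-numbered arrays from -0.29 to 0.16). A replicate block instead of the set code gave 0 and 1361, and with the set code 0 and 1087. The interaction with set code passed 0 in both settings (smallest adjusted p 0.537 and, without the filter, 0.528). Of the 5771 values of 168 named genes under other settings, 5649 kept their sign and 47 turned, and 5 newly passed, those of FKBP1A, SH3PXD2A (in 2 settings), FADS6 and ACTN2 (0.51 without S1, adjusted p 0.0426). Of 1330 list medians 59 turned.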

Other observations

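The probe set with the smallest p in the 36-array limma fit has no gene name in the annotation and was chosen here after its values were seen. It ran from 5.8 over a median of 6.5 to 6.9 in controls and from 6.6 over 6.95 to 7.3 at the medium dose. The difference was 0.51 ± 0.10 (adjusted p = 0.153), all 12 medium-dose arrays lay above the control median, and within S2 to S5 it was 0.33, 0.47, 0.87 and 0.25. At the high dose it was 0.23 ± 0.10.

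Among unnamed probe sets with an unadjusted p under 0.05, the lowest estimate belonged to one whose values, too, were seen before it was chosen. It ran from 7.9 over 9.4 to 11.3 in controls and from 7.3 over 7.85 to 10.1 at the medium dose (-1.34 ± 0.34, limma adjusted p = 0.466). Its difference was -2.93 within S4 and -0.35 within S5.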
